A study of Homo sapiens with 4 samples.

Results

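The p53 pathway was followed through 31 genes, named from textbook knowledge as regulators or direct targets of p53 and read from the gene counts of OCI-AML3 cells. They were chosen with earlier results of these data known. All 31 had a row among the 67062 of the count table. A filter on low counts left 15918 genes for testing, and 30 of the 31 passed it. They were grouped by role into 5 regulators of p53 itself, 5 genes of cell cycle arrest, 4 of DNA repair, 8 of cell death and 9 of metabolism and oxidative stress. SPATA18 was the member that did not pass.

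OCI-AML3 is an established human acute myeloid leukaemia cell line whose cells carry the NPM1c+ mutation. One set of cultures was transduced with PIG-LONA, a retroviral pMSCV-PIG vector with the full-length LONA long noncoding RNA behind an RNA polymerase II promoter. The controls received PIG-EMPTY, the vector with no insert. Both vectors carry puromycin resistance and GFP behind a PGK promoter, and all cultures were sorted for GFP before polyadenylated RNA was taken. Each vector had 2 independent transductions of the same line, so n = 2 libraries per group and the error covers separate transductions, not separate patients or lines. Sorted, vector-bearing cells were compared with each other, and cells without any vector were not analysed here. The level of LONA was not analysed here either, so the labels were not checked against it.

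The 4 libraries held 29819572 to 38358442 counts. Levels are given as CPM, counts scaled to 1e6 of the TMM-adjusted library total, and levels of different genes are set against each other only as RPKM, CPM per kilobase of merged exons. Of the 9 myeloid marker genes, all were detected in each library, among them CD33, the haematopoietic phosphatase gene PTPRC and CEBPA. T-cell genes CD3D and CD3E, the B-cell gene MS4A1, the globin genes and the epithelial gene EPCAM had a count of 0 in every library.

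The protein p53 is a transcription factor that is kept low by the ubiquitin ligase MDM2 and its partner MDM4, and that is stabilised after DNA damage, ribosomal stress or oncogene activity. Once active it binds paired decamer elements near its target genes and raises products that stop the cell cycle, repair DNA, trigger death receptors and mitochondrial apoptosis, and adjust metabolism. Much of this control acts on the protein, which RNA counts do not measure.

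p53 elements were searched in the RefSeq promoter windows of the members, 250 bases before to 50 bases after a transcript start on GRCh38.p14. A match was a pair of decamers fitting the p53 consensus, read on both strands since the consensus is its own reverse complement, with at most 3 mismatches in 20 bases, the invariant C and G of each decamer kept, and at most 1 base between the decamers. The table held 34 windows for 23 of the members. A match stood in 9 of the 34 windows (26.5%), against 2.38% of 34943 windows of all genes. The members were named as regulators or direct targets of p53, so a higher share among them is not an independent result. The 9 windows with a match belonged to 8 members, as the later windows of MDM2 overlap and hold the same site. The sites are shown because such paired decamers are the sequence p53 is known to bind. The decamers are in capitals, 5′ to 3′ on the strand of the gene, with up to 4 flanking bases in lower case.
MDM2: agctGGTCAAGTTCAGACACGTTCcgaa
RPS27L: ggagGGCCTAGAGCAGACAAGCCCgccc
FAS: tcctGGACAAGCCCTGACAAGCCAagcc
AEN: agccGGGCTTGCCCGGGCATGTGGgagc
DDB2: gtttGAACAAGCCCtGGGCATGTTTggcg
SESN1: gtctGGACAAGTCTCCACAAGTCAgaaa
FDXR: gcccGGGCAGGAGCGGGCTTGCCCtgcg
GDF15: gcacAGCCATGCCCGGGCAAGAACtc
The MDM2 sequence (chr12:68808919-68808946, plus strand) lay within the later windows of the gene, before the start they are set on. It was outside the GENCODE release 29 exons of MDM2 and of the other genes listed here. The SESN1 sequence (chr6:109009014-109009041, minus strand) was likewise outside those exons. Exons of genes not listed here were not checked. The RPS27L sequence (chr15:63157523-63157550, minus strand), the FAS sequence (chr10:88991305-88991332, plus strand), the AEN sequence (chr15:88621302-88621329, plus strand) and the FDXR sequence (chr17:74872992-74873019, minus strand) overlapped annotated exons. DDB2 (chr11:47214975-47215003, plus strand) was the only one of the 8 with 0 mismatches, and it and GDF15 (chr19:18386182-18386207, plus strand) had their pair just after a start, in annotated exon. A match is a description of the letters in a window and was not tested for binding.

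Few of the p53 pathway members passed the test in PIG-LONA cells. Of the 30 tested members 2 fell, PHLDA3 and RPS27L, 1 rose, POLH, and 27 did not pass (quasi-likelihood test of edgeR, called at a Benjamini-Hochberg adjusted p under 0.05 across the 15918 genes). That is 10% of the members, against 6.44% of all tested genes called in either direction, 3.51% called lower and 2.93% called higher. With 3 calls, the members' share was near that of all genes. PIG-LONA levels were 0.784-fold those of PIG-EMPTY for PHLDA3, 0.874-fold for RPS27L and 1.199-fold for POLH.

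Direction and size can be described beyond the calls. Since the members were chosen with earlier results of these data known, their counts by direction are not independent evidence of a direction. The log2 fold change of PIG-LONA over PIG-EMPTY was below 0 in 23 of the 30 tested members (76.7%), against 49.6% of all tested genes, with a median of -0.067 among members and 0.0011 among all genes. Both PIG-LONA libraries lay below both PIG-EMPTY libraries in 13 members and above them in 6, which together is 19 of 30, whereas 48.0% of all tested genes had groups that did not overlap (24.4% lower and 23.7% higher in PIG-LONA). The members' CPM summed to 1254 and 1267 in the PIG-LONA libraries, against 1278 and 1296 in the PIG-EMPTY libraries. For 20 of the 30 members the 95% interval of the difference lay within 1.25-fold in both directions, and for the other 10 the interval reached further. Over all tested genes it lay within 1.25-fold for 8878 of 15918. The 20 include RPS27L, which passed. The members without a passed test cannot be said to be equal in the groups.

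**Figure D1:**
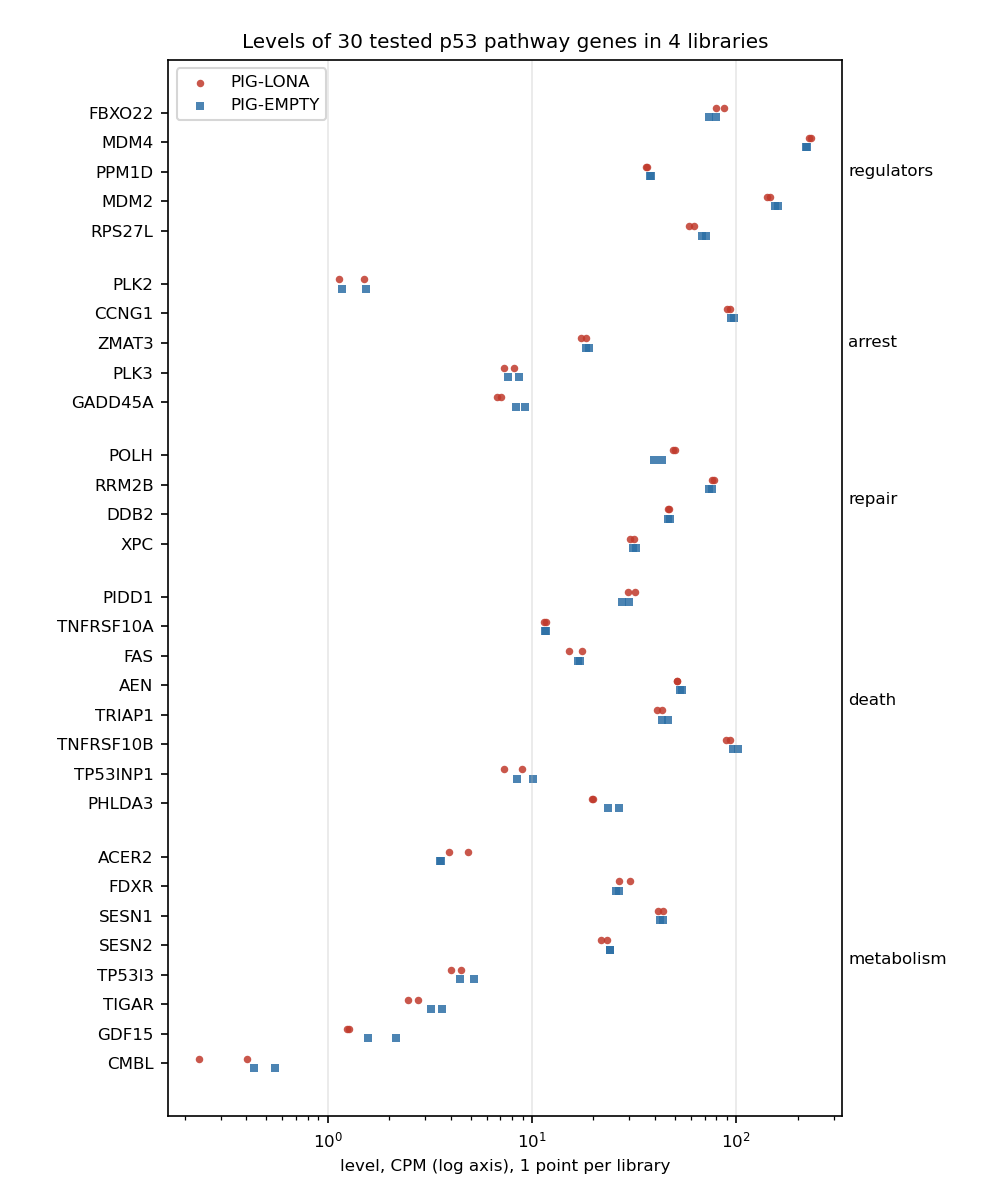
Level of each tested p53 pathway gene in CPM on a log axis, 1 point per library, with PIG-LONA (red circles) above PIG-EMPTY (blue squares) and genes grouped by role. The points of a gene lie close together on an axis that runs from CMBL under 1 CPM to MDM4 above 200 CPM. CPM is not scaled to gene length, so the order of genes on this axis is not an order of levels.

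**Figure D2:**
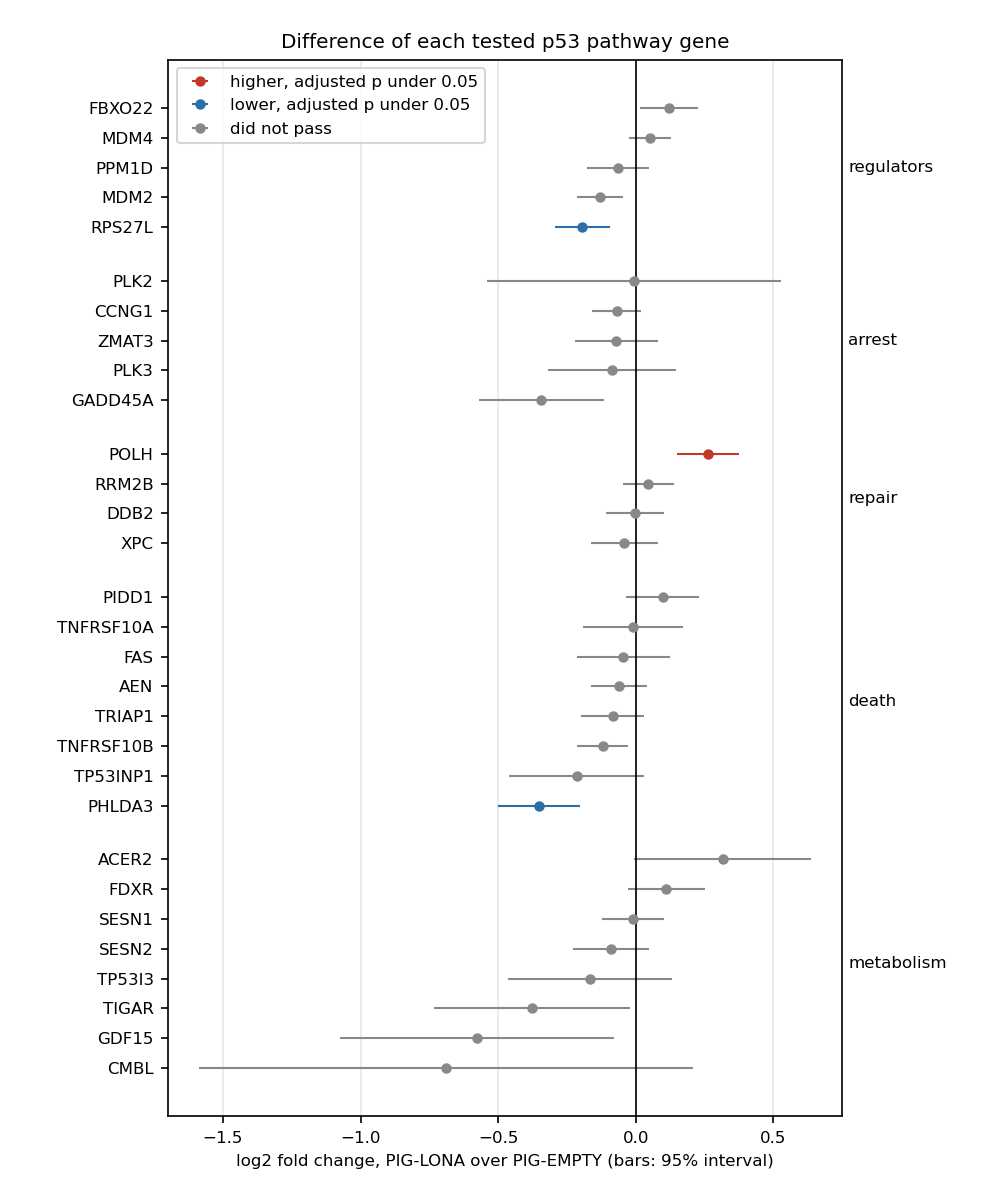
Log2 fold change of PIG-LONA over PIG-EMPTY for each tested gene, with 95% intervals as bars and genes grouped by role. PHLDA3 and RPS27L are the 2 called lower and POLH the 1 called higher, and the widest interval is that of CMBL, the tested gene with the lowest counts.

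Per kilobase, CCNG1 (30.3 RPKM over the 4 libraries) and TRIAP1 (30.2 RPKM) had the highest levels of the members, followed by MDM4 (20.5 RPKM), the death receptor gene TNFRSF10B (18.5 RPKM), RRM2B (13.6 RPKM), POLH (12.8 RPKM) and MDM2 (11.3 RPKM). Another 19 members lay between 1 and 10 RPKM. TIGAR (0.750 RPKM), GDF15 (0.749 RPKM), PLK2 (0.281 RPKM), CMBL (0.122 RPKM) and SPATA18 (0.0084 RPKM) were under 1 RPKM. Differences between neighbours such as CCNG1 and TRIAP1, or TIGAR and GDF15, were smaller than the spread between libraries. Merged exons join all annotated transcripts of a gene, 9127 bases for RPS27L and 13284 for MDM2, against 3096 for CCNG1. A gene expressed mainly from a shorter transcript is placed too low, so the order is approximate.

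Among the regulators of p53, MDM2 (chromosome 12, 68808176 to 68850686, GRCh38) encodes the ubiquitin ligase that marks p53 for degradation and is itself a p53 target. It had 141 and 147 CPM in the PIG-LONA libraries and 155 and 160 CPM in the PIG-EMPTY libraries. Both PIG-LONA values were below both PIG-EMPTY values, a log2 fold change of -0.13 ± 0.04 (SE, n = 2 per group; 95% interval -0.21 to -0.047). It missed the threshold (edgeR adjusted p = 0.0572). With the replicate number as a block it passed (edgeR adjusted p = 0.0397), though nothing in the labels pairs the replicates. It did not pass with DESeq2 size factors (edgeR adjusted p = 0.059) or the DESeq2 Wald test (adjusted p = 0.191). Nor did it without the filter on low counts (edgeR adjusted p = 0.242) or with the chromosome 6 shift removed (edgeR adjusted p = 0.0642). Leaving out 1 library leaves 1 library in a group. The estimate then ran from -0.16 without PIG-LONA replicate 2 to -0.10 without PIG-LONA replicate 1. The counts are per gene, so transcripts from the start that follows the p53 site shown above and from the upstream start were not separated.

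MDM4, which encodes the relative of MDM2 that blocks the activation domain of p53, was at 232 and 227 CPM in PIG-LONA and 222 and 220 CPM in PIG-EMPTY. Its values were slightly higher in PIG-LONA with no overlap, and the difference did not pass (log2 fold change 0.05 ± 0.04, edgeR adjusted p = 0.482). The phosphatase gene PPM1D, whose product WIP1 removes activating phosphates from p53 and its kinases, averaged 36.3 ± 0.17 CPM in PIG-LONA and 37.9 ± 0.33 CPM in PIG-EMPTY (SD, n = 2 per group) and did not pass (edgeR adjusted p = 0.582). FBXO22, a ubiquitin ligase subunit gene, had 79.4 and 86.8 CPM in PIG-LONA and 73.7 and 79.2 CPM in PIG-EMPTY. Its log2 fold change of 0.12 ± 0.05 did not pass (edgeR adjusted p = 0.185) except without PIG-LONA replicate 1 (edgeR adjusted p = 0.000722). Of its 50-base transcript words, 17% also occurred in transcripts of another gene, mostly NRG4 on the other strand.

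RPS27L was the regulator that changed. The gene (chromosome 15, 63125872 to 63158021) encodes a ribosomal protein paralog that binds MDM2, and it is a p53 target. RPS27L had 62.3 and 59.0 CPM in the PIG-LONA libraries, against 67.7 and 70.8 CPM in the PIG-EMPTY libraries. The lower pair was that of PIG-LONA, without overlap, a log2 fold change of -0.19 ± 0.05 or 0.874-fold (95% interval -0.29 to -0.094, edgeR adjusted p = 0.0159). The call was lost without PIG-EMPTY replicate 2 (edgeR adjusted p = 0.331), with the DESeq2 Wald test (adjusted p = 0.0933) and without the filter on low counts (edgeR adjusted p = 0.127). Only 2.19% of its 50-base words were shared with other genes' transcripts.

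The 5 arrest genes gave 0 calls (0 also with the DESeq2 Wald test, which gave no adjusted p for PLK2). At an unadjusted edgeR p under 0.05 there was 1, against 2971 of all 15918 tested genes. All 5 had log2 fold changes below 0, with a median of -0.071. GADD45A, whose product binds PCNA and slows the cell cycle after damage, had 6.75 and 7.05 CPM in PIG-LONA and 9.27 and 8.31 CPM in PIG-EMPTY. The groups did not overlap and the estimate was -0.34 ± 0.11, yet it did not pass (edgeR adjusted p = 0.0667), and its 95% interval ran from -0.57 to -0.12. CCNG1, which encodes cyclin G1, a p53 target that feeds back on MDM2 through a phosphatase, had 89.9 and 93.0 CPM in PIG-LONA and 94.6 and 97.4 CPM in PIG-EMPTY (log2 fold change -0.07 ± 0.04, edgeR adjusted p = 0.418).

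ZMAT3, a zinc finger gene for an RNA-binding protein that acts in p53-dependent growth control, was at 17.3 and 18.3 CPM in PIG-LONA and 18.4 and 19.1 CPM in PIG-EMPTY. Its groups were apart by a narrow margin and it did not pass (edgeR adjusted p = 0.667). The polo-like kinase genes overlapped between groups. PLK3 had 8.15 and 7.31 CPM in PIG-LONA and 7.59 and 8.68 CPM in PIG-EMPTY. PLK2 had counts of 34 and 58 in PIG-LONA and 46 and 38 in PIG-EMPTY, and its 95% interval of -0.54 to 0.53 leaves no direction to read at this depth.

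In the repair group the rise of POLH stood beside 3 genes that did not pass. POLH (chromosome 6, 43576150 to 43615660) encodes DNA polymerase eta, which copies past ultraviolet lesions. It had 49.2 and 49.96 CPM in the PIG-LONA libraries, against 39.6 and 43.1 CPM in the PIG-EMPTY libraries. Both PIG-LONA libraries were higher, and the difference between groups was larger than that within either (log2 fold change 0.26 ± 0.05 or 1.199-fold, 95% interval 0.15 to 0.37, edgeR adjusted p = 0.00424). The 799 tested genes of chromosome 6 had a median log2 fold change of 0.17, against -0.0036 for the genes of other chromosomes, and 240 of them were called. With that median shift removed from the chromosome 6 genes, POLH was at 0.097 and no longer passed (edgeR adjusted p = 0.400). It also lost its call without PIG-EMPTY replicate 1 (edgeR adjusted p = 0.141) and without the filter on low counts (edgeR adjusted p = 0.0566).

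XPC and DDB2, both damage sensors of nucleotide excision repair, hardly differed. DDB2 had 46.7 and 46.4 CPM in PIG-LONA and 46.1 and 47.2 CPM in PIG-EMPTY, with overlapping groups and a 95% interval of -0.11 to 0.10. Its promoter window held the closest match to the p53 consensus. XPC was at 31.7 and 30.3 CPM in PIG-LONA and 31.3 and 32.4 CPM in PIG-EMPTY, also with overlap, and 22.4% of its 50-base words occurred in other genes' transcripts. RRM2B, the p53-inducible small subunit of ribonucleotide reductase, had 76.0 and 77.8 CPM in PIG-LONA and 73.2 and 75.9 CPM in PIG-EMPTY. The groups were apart by a narrow margin and it did not pass (edgeR adjusted p = 0.652).

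PHLDA3 was the death gene that changed, and its fall was the largest among the called members. PHLDA3 (chromosome 1, 201464383 to 201469237) encodes a pleckstrin homology domain protein that competes with AKT for membrane lipids and so dampens survival signalling. It had 19.6 and 19.9 CPM in the PIG-LONA libraries, against 23.6 and 26.8 CPM in the PIG-EMPTY libraries. The PIG-LONA values were lower and nearly equal, whereas the PIG-EMPTY values were further apart (log2 fold change -0.35 ± 0.07 or 0.784-fold, 95% interval -0.50 to -0.20, edgeR adjusted p = 0.00371). The call was lost without PIG-EMPTY replicate 2, the higher of the controls (log2 fold change -0.26, edgeR adjusted p = 0.162), and without the filter on low counts (edgeR adjusted p = 0.0678). An overlapping noncoding gene on the same strand shares 598 exonic bases with PHLDA3 and had a count of 0 in all libraries.

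**Figure D3:**
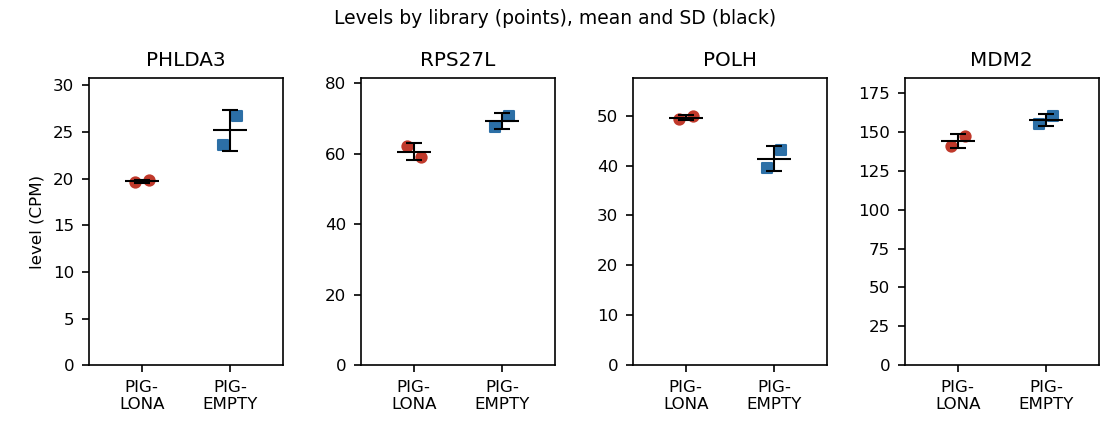
Level in CPM of the 3 called members and of MDM2 in each library (points), with PIG-LONA left of PIG-EMPTY and the mean and SD in black. The groups do not overlap in any of the 4 genes, and each vertical axis starts at 0.

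The 3 death receptor genes gave 0 calls (0 also with the DESeq2 Wald test). At an unadjusted edgeR p under 0.05 there was 1, TNFRSF10B, against 2971 of all 15918 tested genes. FAS, the receptor for FAS ligand, had 15.2 and 17.6 CPM in PIG-LONA and 17.2 and 16.8 CPM in PIG-EMPTY, so the PIG-LONA libraries lay on either side of the controls. TNFRSF10A, which encodes the TRAIL receptor DR4, had 11.4 and 11.7 CPM in PIG-LONA and 11.8 and 11.5 CPM in PIG-EMPTY, again with overlap. TNFRSF10B, which encodes the TRAIL receptor DR5, had 89.2 and 93.7 CPM in PIG-LONA and 102 and 96.8 CPM in PIG-EMPTY. DR5 was lower without overlap, but the log2 fold change of -0.12 ± 0.04 did not pass (edgeR adjusted p = 0.130), except without PIG-LONA replicate 2 (edgeR adjusted p = 0.0110).

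The other death genes did not pass either. TP53INP1, a stress-induced p53 partner gene also tied to autophagy, had 8.95 and 7.26 CPM in PIG-LONA and 8.43 and 10.1 CPM in PIG-EMPTY. Its groups overlapped, and its log2 fold change of -0.22 ran from -0.36 without PIG-LONA replicate 1, where it passed (edgeR adjusted p = 0.0280), to -0.055 without PIG-LONA replicate 2. AEN, an apoptosis-enhancing nuclease gene, was at 51.4 and 51.5 CPM in PIG-LONA and 53.3 and 54.0 CPM in PIG-EMPTY (edgeR adjusted p = 0.553). PIDD1, which encodes the scaffold of the caspase-2 platform, had 32.1 and 29.5 CPM in PIG-LONA and 29.8 and 27.6 CPM in PIG-EMPTY, with overlap. It shares 107 exonic bases with the abundant ribosomal gene RPLP2 on the other strand. TRIAP1, a small mitochondrial survival factor, was at 43.4 and 41.1 CPM in PIG-LONA and 46.3 and 43.2 CPM in PIG-EMPTY, with overlap (edgeR adjusted p = 0.448).

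The 9 metabolism and stress genes gave 0 calls among the 8 tested (0 also with the DESeq2 Wald test, which gave no adjusted p for GDF15 and CMBL). At an unadjusted edgeR p under 0.05 there were 2, against 2971 of all 15918 tested genes. The sestrins, which restrain mTORC1 when amino acids or redox balance fail, did not pass. SESN1 had 41.5 and 44.0 CPM in PIG-LONA and 42.2 and 44.0 CPM in PIG-EMPTY. It lies on chromosome 6 (108986437 to 109094819), as POLH does, and its log2 fold change was -0.0090 as counted and -0.17 with the chromosome 6 shift removed (edgeR adjusted p = 0.0756). SESN2 had 21.9 and 23.3 CPM in PIG-LONA and 24.1 and 24.1 CPM in PIG-EMPTY, lower without overlap (log2 fold change -0.09 ± 0.07, edgeR adjusted p = 0.511).

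GDF15, a secreted stress cytokine of the TGF-beta family, had counts of 38 and 48 in PIG-LONA and 47 and 70 in PIG-EMPTY. Scaled to CPM, the PIG-LONA values of 1.27 and 1.25 lay below the PIG-EMPTY values of 1.58 and 2.16, a log2 fold change of -0.58 ± 0.24 that did not pass (95% interval -1.07 to -0.081, edgeR adjusted p = 0.180). TIGAR, a fructose bisphosphatase that diverts sugar into the pentose phosphate path, had counts of 74 and 106 in PIG-LONA and 95 and 118 in PIG-EMPTY (-0.38 ± 0.17, edgeR adjusted p = 0.233). In TIGAR 44.6% of the 50-base words occurred in another annotated gene, nearly all in an overlapping same-strand gene with a count of 0 in every library.

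TP53I3, a quinone oxidoreductase gene also called PIG3, had counts of 120 and 172 in PIG-LONA and 154 and 144 in PIG-EMPTY, with overlap after scaling. FDXR, the mitochondrial reductase that supplies electrons for iron-sulfur cluster and steroid synthesis, had 30.2 and 26.7 CPM in PIG-LONA and 26.7 and 25.9 CPM in PIG-EMPTY. FDXR was higher in PIG-LONA, with its nearest libraries almost equal (log2 fold change 0.11 ± 0.07, edgeR adjusted p = 0.409). ACER2, an alkaline ceramidase gene, had 3.94 and 4.84 CPM in PIG-LONA and 3.59 and 3.54 CPM in PIG-EMPTY, the highest positive estimate among the members (0.32 ± 0.15), and it did not pass (edgeR adjusted p = 0.276). CMBL, a hydrolase gene, had counts of 12 and 9 in PIG-LONA and 13 and 18 in PIG-EMPTY, and no direction could be read at that depth (95% interval -1.59 to 0.21). SPATA18, which acts in mitochondrial quality control, had counts of 0 and 0 in PIG-LONA and 4 and 1 in PIG-EMPTY and was not tested. Since 3 counts are the limit that a count of 0 allows, no difference of SPATA18 was detectable.

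Of the 8 members with a p53 site in a promoter window, RPS27L fell and 7 did not pass, with log2 fold changes of -0.13 for MDM2, -0.06 for AEN, -0.05 for FAS, -0.58 for GDF15, -0.0090 for SESN1, -0.0028 for DDB2 and 0.11 for FDXR. The window of POLH held no match, and PHLDA3 had no window.

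Other genes of the pathway were taken from 2 lists that hold none of the members. Among 17 genes that act on p53 or with it, 0 were called in either direction by edgeR (0 also with the DESeq2 Wald test). At an unadjusted edgeR p under 0.05 there were 3 of the 17, near the share of all tested genes (2971 of 15918). The median log2 fold change of this list was 0.012, with 10 genes above 0 and 7 below. Its estimates ran from -0.11 ± 0.05 for TP53BP1 (edgeR adjusted p = 0.189) to 0.22 ± 0.07 for USP28 (edgeR adjusted p = 0.0572). Counts for this list with 1 library left out are given at the end, beside those of all genes. Such a fit leaves 1 library in a group. The damage kinase genes ATM (0.13 ± 0.05), ATR (0.10 ± 0.05), CHEK1 (0.08 ± 0.05) and CHEK2 (0.06 ± 0.06) all had estimates above 0. None passed (edgeR adjusted p of 0.170, 0.281, 0.357 and 0.667 in that order). They were picked for their roles after the values were seen. ATM had 126.9 and 147.3 CPM in PIG-LONA and 125.8 and 125.7 CPM in PIG-EMPTY, so its estimate rested mostly on PIG-LONA replicate 2. The ribosomal genes RPL5 and RPL11, whose products hold MDM2 off p53 during ribosomal stress, were at -0.02 and -0.03 and did not pass.

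Among 38 further p53 targets, 35 were tested, 6 fell, 2 rose and 27 did not pass, which is 22.9% called beside the 6.44% of all genes. CDKN1A, BAX and TRIM22 were put on it with their results in these libraries already known, so the count is not independent evidence of a direction. CDKN1A, which encodes the CDK inhibitor p21, the main arrest effector of p53, had 30.1 and 29.96 CPM in PIG-LONA and 41.9 and 41.3 CPM in PIG-EMPTY. Its fall (log2 fold change -0.47 ± 0.05, edgeR adjusted p = 1.67e-05) passed in each of the 9 other settings, with estimates between -0.63 and -0.46. FUCA1, a lysosomal fucosidase gene, had 20.7 and 23.8 CPM in PIG-LONA and 30.5 and 32.8 CPM in PIG-EMPTY. It fell by 0.50 ± 0.07 on the log2 scale (edgeR adjusted p = 0.000121) and also passed in all 9 settings.

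The remaining falls were smaller. BTG2, an antiproliferative cofactor gene, fell to 22.2 ± 0.27 CPM in PIG-LONA, against 26.6 ± 0.48 CPM in PIG-EMPTY (SD, n = 2 per group; edgeR adjusted p = 0.0134). BAX, the pore-forming executioner of mitochondrial apoptosis, fell to 123 ± 0.83 CPM in PIG-LONA, against 139 ± 0.06 CPM in PIG-EMPTY (edgeR adjusted p = 0.00872). The antiviral ubiquitin ligase gene TRIM22 was at -0.29 ± 0.05, and the semaphorin receptor gene PLXNB2 at -0.13 ± 0.04 (edgeR adjusted p = 0.0460). Leaving out PIG-EMPTY replicate 1 ended the calls of BTG2 (edgeR adjusted p = 0.0551), BAX (0.143) and PLXNB2 (0.308). Leaving out PIG-EMPTY replicate 2 ended those of BTG2 (0.174), BAX (0.176), PLXNB2 (0.494) and TRIM22 (0.0868), and all 4 were also lost when genes of low counts were kept in. With the DESeq2 Wald test BTG2 (adjusted p = 0.125) and PLXNB2 (adjusted p = 0.145) lost their calls. BBC3, which encodes PUMA, was at -0.10 ± 0.08 (edgeR adjusted p = 0.544), and PMAIP1, which encodes NOXA, at 0.23 ± 0.08 (edgeR adjusted p = 0.0834). Neither BH3-only gene passed, and PMAIP1 did so only without PIG-LONA replicate 1 (edgeR adjusted p = 0.00349).

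The 2 targets that rose, the translesion polymerase gene REV3L (0.38 ± 0.07, edgeR adjusted p = 0.000852) and the helicase gene ASCC3 (0.18 ± 0.04, edgeR adjusted p = 0.0152), lie on chromosome 6, as do POLH and CDKN1A. ASCC3 also lost its call without PIG-EMPTY replicate 1 (edgeR adjusted p = 0.198) and without PIG-EMPTY replicate 2 (edgeR adjusted p = 0.0645). With the chromosome 6 shift removed, REV3L was at 0.21 and ASCC3 at 0.017, neither past the threshold (edgeR adjusted p of 0.0538 and 0.902). PLXNB2, on chromosome 22, kept its estimate of -0.13 there while its adjusted p moved to 0.0517. CDKN1A was then at -0.63. The 3 called rises among members and other targets, POLH, REV3L and ASCC3, were thus all on chromosome 6, and all 3 lost their calls once the shift was removed.

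**Figure D4:**
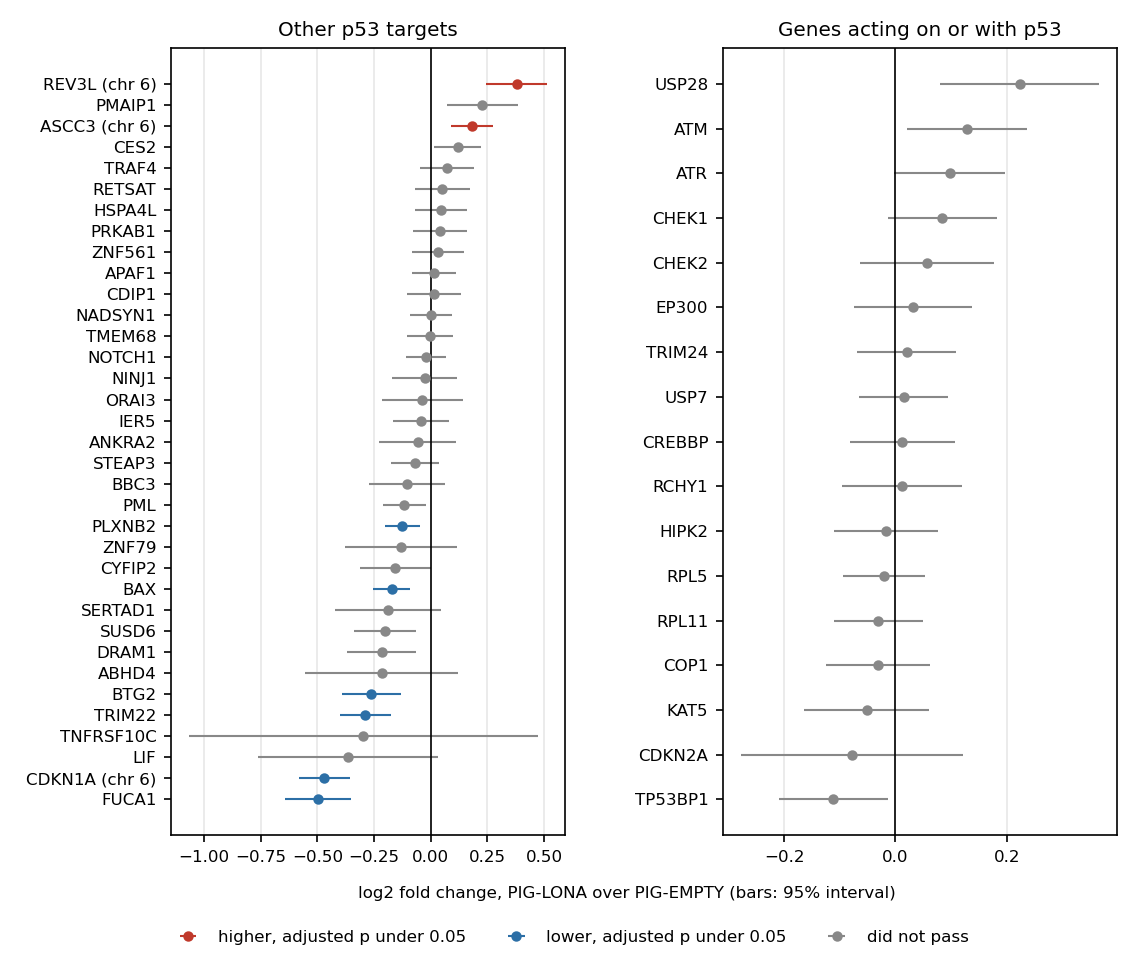
Log2 fold change of PIG-LONA over PIG-EMPTY, with 95% intervals, for 35 tested p53 targets outside the member list (left) and 17 genes acting on or with p53 (right). Names marked chr 6 lie on chromosome 6, and FUCA1 and CDKN1A have the lowest called values.

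Of the 9 myeloid markers 2 (22.2%, against 3.51% of all tested genes called lower) fell, the aminopeptidase gene ANPEP (-0.57 ± 0.06, edgeR adjusted p = 2.16e-06) and SPI1 (-0.13 ± 0.04, edgeR adjusted p = 0.0346), and 7 did not pass. All 9 had log2 fold changes below 0, and the groups overlapped in 4. Their summed level was 1332 to 1360 CPM in PIG-LONA and 1410 to 1435 CPM in PIG-EMPTY. PECAM1, an adhesion gene of endothelium and myeloid cells, fell as well (-0.31 ± 0.06, edgeR adjusted p = 0.00190), while EPCAM was at 0 and CDH1, COL1A1 and COL3A1 had at most 6 counts in any library. The part of this marker difference in the p53 target values was not tested, and in bulk RNA fewer cells of a type and less RNA per cell cannot be told apart.

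**Figure D5:**
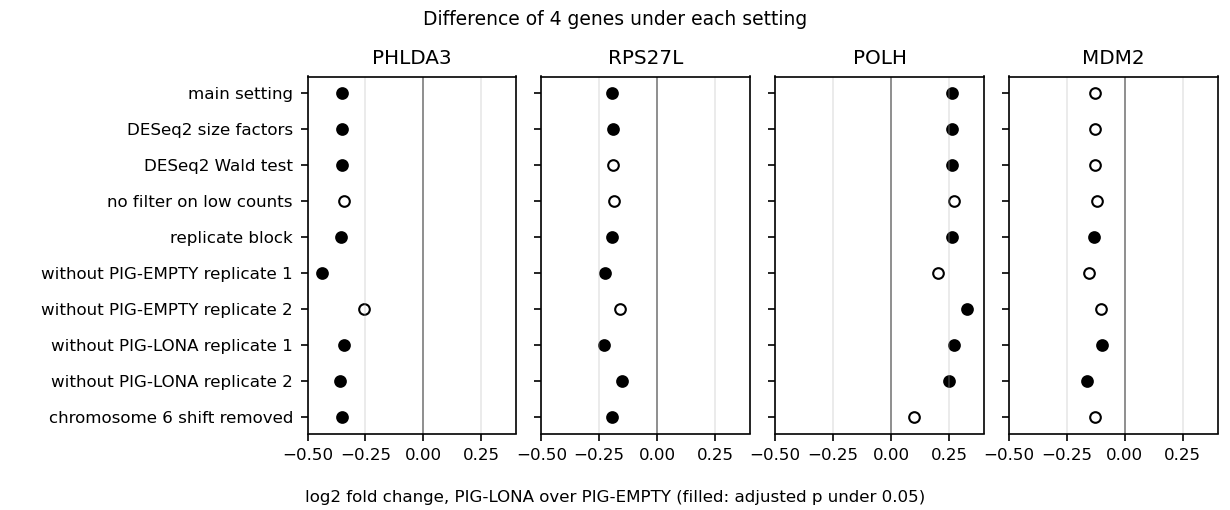
Log2 fold change of PIG-LONA over PIG-EMPTY for PHLDA3, RPS27L, POLH and MDM2 under the main setting and 9 others, filled where the adjusted p was under 0.05. Signs hold in every setting, while each gene has filled and open points.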

How the data were processed

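RNA of 4 OCI-AML3 cultures, 2 per vector, was sequenced from libraries of a directional kit, per the labels' protocols. The authors deposited raw read counts per Ensembl gene, 1 column per library. Per the submitters' processing notes, the tools included STAR 2.5 and HTSeq, with FastQC 0.11.4, and the build was hg38. The counting's annotation and strand option were not given in the sources used here, so reads of overlapping or antisense genes may be mixed. Symbols matched 60402 of 67062 rows, and rows without one held 0.0723% of counts. Coordinates and exon lengths came from GENCODE release 29 (GRCh38), and promoter sequences from RefSeq (GRCh38.p14).

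Genes kept by filterByExpr (minimum count 10, minimum total 15) entered the quasi-likelihood test of edgeR 4.0.16 (R 4.3.3; glmQLFit, legacy off, and glmQLFTest, two-sided, intercept and group). SE is the log2 fold change over the square root of F, and intervals are 95%. The chi-square per gene was 4.67 between PIG-LONA replicates and 1.81 between PIG-EMPTY replicates, so all 4 libraries were kept apart. The biological coefficient of variation was 2.95%. The test was checked on simulated counts. It recovered 29 of 58 genes changed by 1.2-fold (50%) and 33 of 44 changed by 1.5-fold (75%). At 2-fold it recovered 35 of 41 (85.4%) and at 4-fold 54 of 54. Changes of 1.2-fold were thus often missed. A further 17 calls, among 15930 genes tested, fell on unchanged genes and were false. Their share is to be read against the recovered genes, not against all genes tested. The simulated counts used 1 dispersion per gene for both groups, whereas the chi-square above differed between them. The share of 50-base words shared between genes came from GENCODE transcripts, as a guide to ambiguous reads, with no read length given.

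All 31 members may be named. Of the other lists, every called gene, CDKN1A, BAX, BBC3, PMAIP1 and BTG2 were to be named. ATM, ATR, CHEK1, CHEK2, RPL5, RPL11 and the markers were added for their roles after the values were seen. TP53BP1 and USP28 were added as the ends of their list. 1 further gene of the rule is not reported here. Members and lists were chosen with earlier results of these data known. Alternatives were DESeq2 1.42.0 size factors or its Wald test, no low-count filter, leaving out each library, a replicate block, and the chromosome 6 shift removed.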

Additional observations from a re-analysis of the deposited data

How the results depend on the processing

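The count of all called genes, 1025, was 473 with the DESeq2 Wald test, 334 without the low-count filter and 466 to 2331 with 1 library left out. Among members, the 2 lower calls became 1 with DESeq2, 0 without the filter and 0 to 4 with 1 library left out, and the 1 higher call became 0 without the filter, 0 with the chromosome 6 shift removed and 0 to 2 with 1 library left out. The 6 lower calls among other targets became 4 with DESeq2, 2 without the filter and 2 to 7 with 1 library left out, and the 2 higher ones 1, 0 with the chromosome 6 shift removed and 1 to 4. The genes acting on or with p53, with 0 calls, had 0 to 4 higher and 0 to 2 lower calls with 1 library left out. The causes were not tested, other than that a left-out library leaves 3 libraries and that 1 lone library is then assumed to vary like the other group. The members' median of -0.067 stayed between -0.071 and -0.053 in all settings. None of the 30 tested members was past the threshold in every setting and 23 were past it in none.

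Signs turned only in members near 0 that never passed. Without the low-count filter PLK2 was at 0.0039, DDB2 at 0.0057 and SESN1 at 0.00018. With 1 library left out PLK2 ran from -0.25 to 0.20, PLK3 from -0.17 to 0.020, DDB2 from -0.018 to 0.016, FAS from -0.16 to 0.048, TNFRSF10A from -0.030 to 0.0078 and SESN1 from -0.053 to 0.031.

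The replicate numbers are names of transductions. Differences between replicates 1 and 2 in the groups correlated at 0.046 over the tested genes, and nothing in the labels pairs them. With the replicate block 1101 genes were called, and members had 3 lower calls, MDM2 being added (adjusted p = 0.0397), and 1 higher. The widest 95% intervals were those of CMBL, PLK2 and GDF15, with at most 70 counts in any library.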
